A study of Mus musculus with 7 samples.

Results

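The H3K4me1 landscape of resting CD8-positive T cells (CD8-TC) is described here by every region that the study's peak caller returned for histone H3 monomethylated at lysine 4, set against a control made with non-immune rabbit serum (NIS). These are 76705 of the 81639 regions in both lists of the series, and the list for the transcription factor Runx3 was left aside. The cells came from the spleens of ICR mice, an outbred stock, and cells of 18 animals were pooled. They had been selected on magnetic beads that bind CD8, with a purity above 95% per the labels, and were fixed and frozen without activation. The 2 H3K4me1 libraries were made with a monoclonal antibody and the 2 NIS libraries with rabbit serum, and both groups shared the cell type, strain and handling. The age and sex of the mice and the number of cells of other types among the selected ones are not given in the sources used here. Sonication left fragments near 300 bp, and the reads were 40 to 42 bp long.

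The reads of both H3K4me1 repeats were joined before peaks were called, so the regions form 1 list without scores, heights or read counts. The list therefore shows no spread between repeats and no read depth of a region, and no difference below has a test. Shares carry 95% Wilson intervals, which cover counting error over regions only, and regions that lie side by side are not independent. The range over the 19 autosomes is given as the spread within the list.

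Monomethylation of H3K4 is written by methyltransferases of the MLL family on nucleosomes that flank enhancers, both active and primed ones. At active promoters the trimethylated form takes the nucleosomes next to the start site, and the monomethylated form sits further out on both sides. In lymphocytes the mark is known for long runs over lineage genes, and it can precede transcription of genes that are switched on only after activation.

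The sequences below show what such regions look like at genes of the lineage. Each is the central 200 bp of the widest region in the locus, where a locus is the gene body with 10 kb on either side, read from the plus strand of the mm9 genome (NCBIM37). Capitals mark matches, on either strand, to 1 of 12 short motifs listed further down, among them the RUNX words TGTGGT and TGTGGC, the ETS word AGGAAG, the TCF/LEF word CTTTGA and the E-box CACCTG. Cd8a codes for the CD8 alpha chain, and its window (chr6:71319789-71319988) was intergenic, 3532 bp from the nearest transcription start site (TSS), in a region of 1974 bp. Cd3e codes for a chain of the T-cell receptor complex, and its window (chr9:44806255-44806454) was intergenic, in a region of 3497 bp. Tcf7 codes for the transcription factor TCF-1, and its window (chr11:52079418-52079617) was intronic, in a region of 10303 bp. Il7r codes for the receptor of a survival cytokine, and its window (chr15:9458783-9458982) lay 748 bp from a TSS in a region of 4207 bp. Ets1 codes for the founding ETS factor, and its window (chr9:32519552-32519751) was intronic, in a region of 27110 bp. The windows of Lck, a kinase of T cells, and Bcl11b, a transcription factor of T cells, are not printed. That of Lck held 1 match to TGTGGT, and that of Bcl11b 1 to the E-box and none to a RUNX word.
Cd8a: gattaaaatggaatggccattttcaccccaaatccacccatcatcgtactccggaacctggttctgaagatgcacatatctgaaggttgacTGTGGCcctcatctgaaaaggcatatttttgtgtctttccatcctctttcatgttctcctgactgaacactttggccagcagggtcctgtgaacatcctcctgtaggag
Cd3e: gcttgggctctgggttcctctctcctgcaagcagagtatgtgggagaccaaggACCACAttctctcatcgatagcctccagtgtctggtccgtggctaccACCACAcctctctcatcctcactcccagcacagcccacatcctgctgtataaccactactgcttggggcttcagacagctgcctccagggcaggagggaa
Tcf7: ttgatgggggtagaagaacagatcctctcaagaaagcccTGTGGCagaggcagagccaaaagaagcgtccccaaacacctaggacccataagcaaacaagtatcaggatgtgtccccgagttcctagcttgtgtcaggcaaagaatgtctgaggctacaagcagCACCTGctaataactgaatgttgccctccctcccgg
Il7r: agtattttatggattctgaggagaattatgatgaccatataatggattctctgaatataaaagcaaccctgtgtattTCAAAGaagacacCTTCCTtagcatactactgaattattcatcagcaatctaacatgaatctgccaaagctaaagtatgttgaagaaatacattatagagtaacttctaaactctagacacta
Ets1: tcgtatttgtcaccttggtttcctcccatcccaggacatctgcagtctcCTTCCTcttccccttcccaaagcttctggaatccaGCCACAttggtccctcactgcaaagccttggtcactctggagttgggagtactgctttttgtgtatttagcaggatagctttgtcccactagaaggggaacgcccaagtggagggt

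The printed windows held 1 or 2 matches each, of the RUNX type in Cd8a, Cd3e, Tcf7 and Ets1. How often such words occur over the whole list is given with the motif counts below, and a match describes the letters and not a bound site.

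The first comparison asked where the regions lie relative to TSSs. Regions were concentrated near start sites, yet most lay away from them. Of the 76705 regions, 17390 (22.7%, interval 22.4 to 23.0%) had their midpoint less than 1 kb from the nearest TSS of any annotated transcript, a zone that holds 4.15% of the known bases. This was 5.47-fold the share of bases, and between 3.61 and 6.95-fold on the single autosomes. Between 1 and 5 kb there were 17717 regions (23.1%, 22.8 to 23.4%), or 1.87-fold the share of bases, with 1.43 to 2.45-fold on the autosomes. Both zones were thus above their share of bases on each of the 19 autosomes.

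The largest number, 33662 regions (43.9%, 43.5 to 44.2%), lay between 5 and 50 kb, where 46.5% of the bases lie. The ratio there was 0.943, and with an autosome range of 0.768 to 1.15 it was on both sides of equality. Beyond 50 kb there were 7936 regions (10.3%, 10.1 to 10.6%) in 37.0% of the bases, 0.280-fold and at most 0.398-fold on an autosome. Measured from protein-coding transcripts alone 17.3% of the regions lay beyond 50 kb. Put as coverage, 19.4% of the bases within 1 kb of a TSS were inside a region, 8.97% between 1 and 5 kb, 4.20% between 5 and 50 kb and 1.12% beyond. Coverage per base thus decreased from each distance bin to the next.

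**Figure D1:**
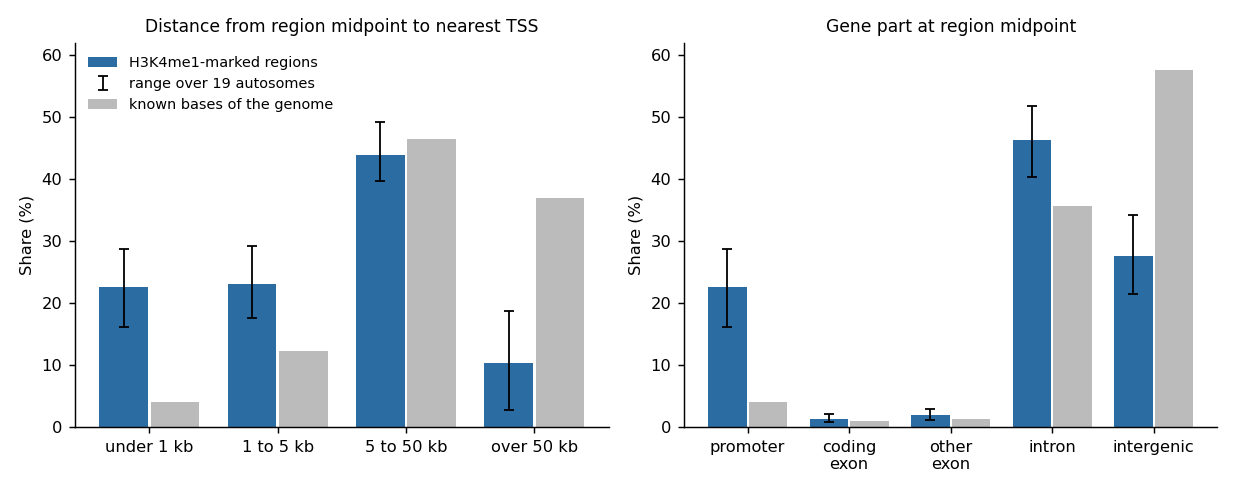
Share of the 76705 H3K4me1-marked regions (blue bars, in percent) and of the known bases of the genome (grey bars) by distance to the nearest TSS, left, and by gene part, right, with black lines for the range over 19 autosomes. The blue bars exceed the grey ones within 5 kb of a TSS and in introns, and fall below them beyond 50 kb (10.3% against 37.0%) and between genes (27.7% against 57.7%).

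The second comparison sorted the midpoints by gene part, in the order promoter (less than 1 kb from a TSS), coding exon, other exon, intron and intergenic. Introns held the most regions, 35560 (46.4%, interval 46.0 to 46.7%), against 35.8% of the bases, or 1.30-fold with 1.08 to 1.53-fold on the autosomes. Sequence between genes held 21233 regions (27.7%, 27.4 to 27.999%) against 57.7% of the bases, or 0.480-fold with 0.412 to 0.585-fold on the autosomes. Transcribed sequence outside exons was therefore above its share of bases, and sequence between genes below it, on every autosome.

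Exons took few midpoints. Coding exons held 1047 (1.36%, 1.29 to 1.45%), or 1.33-fold their share of bases with an autosome range of 0.873 to 1.91. Untranslated and non-coding exons held 1475 (1.92%, 1.83 to 2.02%), or 1.38-fold with 1.10 to 1.61. Most intronic regions were not close to a start, since 20141 lay 5 to 50 kb from the nearest TSS, 12195 lay 1 to 5 kb away and 3224 beyond 50 kb. Between genes 4639 regions were more than 50 kb from any TSS. Reads that align to more than 1 place were discarded before calling, which can lower coverage of repeated sequence, and the part of this in the ratios was not tested.

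The third comparison followed coverage outwards from the TSSs of 22350 protein-coding genes, 1 TSS per gene. This was the outermost start of the gene model. Starts of other transcripts inside the model were not counted, here and in the promoter windows and CpG classes below. Coverage was low around the start site, between 2 shoulders. At the TSS 17.7% of all genes (interval 17.2 to 18.2%) were inside a region, and the lowest point was 15.8%, 100 bp downstream. The share reached 40.7% (40.0 to 41.3%) 900 bp downstream and 37.6% (36.9 to 38.2%) 500 bp upstream, the highest points on either side. On the autosomes the share at the TSS was 13.1 to 23.7%, against 31.4 to 49.4% at 900 bp downstream and 29.0 to 46.5% at 500 bp upstream, and it was lower at the TSS on 19 of 19. These offsets were chosen as the highest points after the profile was seen. With regions within 1000 bp of each other merged, 39.0% of the TSSs were covered, against 42.4% at 900 bp downstream, so merging removed most of the low point, and with regions at or above the median width alone 10.1% were.

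The downstream shoulder was the broader one. At 2 kb downstream 24.1% of the genes were covered and at 2 kb upstream 11.4%, and the downstream value was higher on 19 of 19 autosomes. Gene ends, followed the same way, had no such peak, with 7.74% covered at the end itself. Within the 9711 genes of at least 20 kb, coverage was lower further along the gene body, which was cut into 10 equal bins, with 27.4% in bin 1, 14.2% in bin 2, 7.93% in bin 5 and 4.49% in bin 10.

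The shape depended on the CpG content of the promoter. CpG-rich promoters (observed to expected CpG of at least 0.6 within 500 bp of the TSS) are typical of genes that many tissues use, and CpG-poor ones (below 0.4) of genes with a restricted pattern. Over 10197 CpG-rich TSSs coverage was 19.3% (18.5 to 20.04%) at the TSS, 69.4% (68.5 to 70.2%) 900 bp downstream and 62.4% (61.4 to 63.3%) 600 bp upstream. On the autosomes these values were 15.4 to 23.7%, 64.0 to 75.5% and 57.1 to 70.1%, so the range at the TSS lay below both others. Over 3194 intermediate TSSs the values were 32.7% at the TSS, 40.6% at 600 bp downstream and 40.0% at 300 bp upstream.

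CpG-poor TSSs showed no such low point. Over 8947 of them coverage was 10.5% (9.87 to 11.1%) at the TSS, 10.1% (9.46 to 10.7%) at its highest point downstream and 11.1% (10.5 to 11.8%) 200 bp upstream, with overlapping intervals. A region reached to within 2.5 kb of the TSS for 9091 CpG-rich genes (89.2%, 88.5 to 89.7%), 1972 intermediate ones (61.7%, 60.04 to 63.4%) and 1933 CpG-poor ones (21.6%, 20.8 to 22.5%). Base composition and read mapping differ between these classes, and their part in the profile was not tested.

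**Figure D2:**
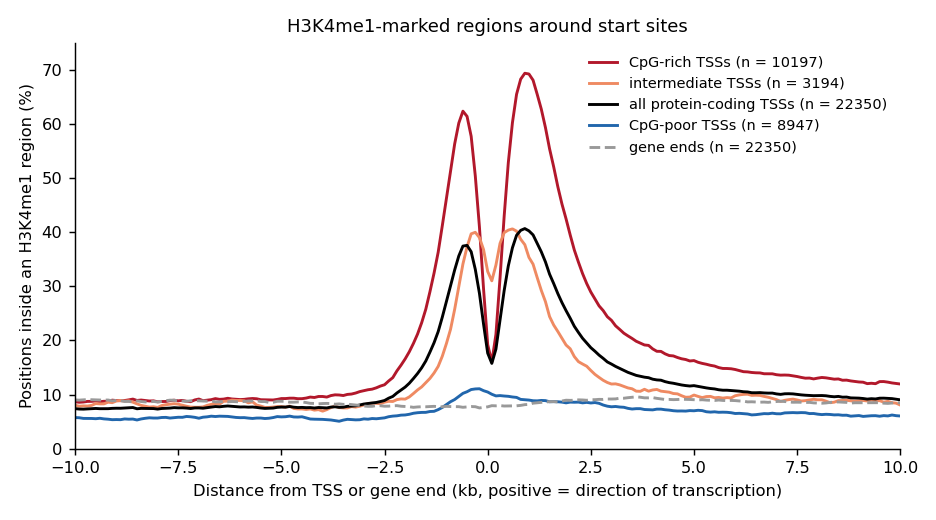
Percent of positions inside an H3K4me1-marked region (vertical axis) by distance from the TSS in kb (horizontal axis), for CpG-rich, intermediate, CpG-poor and all protein-coding TSSs, with gene ends as a dashed line. The CpG-rich line has its low point, 16.0%, 100 bp downstream of the TSS, with shoulders of 69.4% downstream and 62.4% upstream, and the CpG-poor line has its highest point, 11.1%, 200 bp upstream.

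Sorted gene by gene, 6645 of the 22350 genes (29.7%) had a region on both sides within 2.5 kb and none on the TSS. A region lay on the TSS of 3949 (17.7%), downstream only at 1765 (7.90%), upstream only at 642 (2.87%), and on neither side at 9349 (41.8%). Of the 6645 genes with both shoulders 5885 were CpG-rich, which is 57.7% (56.8 to 58.7%) of that class, against 2.63% (2.31 to 2.98%) of the CpG-poor class. The two-sided pattern was thus mainly that of CpG-rich promoters.

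The unmarked interval around those 6645 TSSs had a median length of 725 bp (interval 713 to 737 bp, middle 50% from 486 to 1065 bp). The marked sequence began at a median of 244 bp upstream and 421 bp downstream, so the interval was off-centre towards the gene. For 4777 of them (71.9%) it was at most 1 kb long. In the CpG-rich class the median was 736 bp, in the intermediate class 476 bp and in the few CpG-poor genes with this pattern 1047 bp.

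The next 2 sequences show a CpG-rich and a CpG-poor promoter, chosen after their values were seen, with each CpG in capitals. Neither is typical of its class. Each is the 200 bases before the TSS on the strand of the gene in mm9. B2m codes for beta-2-microglobulin, the light chain of MHC class I that every nucleated cell carries, and its promoter (chr2:121973222-121973421, plus strand) held 7 CpGs. Its observed to expected CpG of 0.607 was just above the limit of the CpG-rich class. Its TSS was in an unmarked interval of 1821 bp that began 148 bp upstream and ended 1674 bp downstream, so 53 of the 200 bases were marked. In the CpG-rich class 75% of such intervals were at most 1062 bp long. Gzmb codes for granzyme B, a protease of killer cells, and its promoter (chr14:56881098-56881297, minus strand) held 2 CpGs. All 200 of its bases lay inside a region that also covered the TSS. This was so for the TSS of 10.5% of CpG-poor genes, while 78.4% had no region within 2.5 kb.
B2m: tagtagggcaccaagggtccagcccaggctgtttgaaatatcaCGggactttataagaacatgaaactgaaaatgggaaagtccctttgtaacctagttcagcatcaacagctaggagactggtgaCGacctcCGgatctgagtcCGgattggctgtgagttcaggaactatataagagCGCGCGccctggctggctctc
Gzmb: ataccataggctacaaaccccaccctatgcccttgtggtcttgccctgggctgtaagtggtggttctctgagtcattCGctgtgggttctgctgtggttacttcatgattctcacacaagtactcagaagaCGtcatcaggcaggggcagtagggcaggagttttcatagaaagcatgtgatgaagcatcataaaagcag

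Widths of single regions were next compared. The list runs from 239 to 51809 bp, with 90% of regions below 2765 bp and 99% below 7338 bp, so a small part of the regions held much of the marked length. The widest 16017 regions (20.9%) made up 50% of it, and the widest 1% made up 7.47%. The 2131 regions over 5 kb were 2.78% of the list and 14.8% of the marked length. In all, 4.28% of the 2556 Mb of known bases were marked.

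Width was then set beside the place of the midpoint. Of the intronic regions 4.07% were over 5 kb, of the intergenic ones 2.28% and of those less than 1 kb from a TSS 0.782%. The median width was 1191 bp (interval 1173 to 1215 bp) 1 to 5 kb from a TSS, against 933 bp (923 to 940 bp) within 1 kb, 950 bp (939 to 959 bp) at 5 to 50 kb and 917 bp (896 to 938 bp) beyond. Of the 301 regions over 10 kb, 80.1% had their midpoint in an intron and 28.9% contained a TSS, against 43.8% and 7.94% of the 39222 regions below 1 kb. Of the 2131 regions over 5 kb 448 contained a TSS. A wider region contains a given site more often by its width alone.

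The 10 widest regions, named by a fixed rule, all had their midpoint in an intron. The widest measured 51809 bp in Cyth1 (chr11:118052964-118104772), which codes for a regulator of integrin adhesion in leukocytes, and it contained a TSS. It was followed by regions of 37263 bp in Dyrk1a (chr16:94792653-94829915), a kinase gene, and 32415 bp in Ptprc (chr1:140036652-140069066), the gene of the leukocyte phosphatase CD45. The others were 31451 bp in Myh9, 30179 bp in Ptpn1, 27110 and 26319 bp in Ets1, 27090 bp in Stk24, 26500 bp in Tpst2 and 24663 bp in Bcl11a. The gap between the 2 Ets1 regions (chr9:32506097-32533206 and chr9:32533309-32559627) shows that single calls can be pieces of a longer run.

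Regions were therefore also joined into domains wherever the gap was at most 12500 bp. Neighbours lay close together, with a median gap of 2578 bp, 26.6% of gaps within 500 bp, 59.3% within 5 kb and 73.1% within 12500 bp. Joining gave 20650 domains, of which 7356 (35.6%) held a single region. The 192 domains longer than 100 kb took up 0.987% of the known bases and held 7.73% of the regions and 11.5% of the marked length. With gaps up to 5 or 25 kb such domains held 0.689% or 43.4% of the marked length, so this share depends on the gap allowed.

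Domains were then ranked by marked length. The first spanned 293.8 kb over Ets1 and its neighbour Fli1 (chr9:32279240-32573003), both ETS factors of blood cells, with 48 regions that marked 186.5 kb or 63.5% of the span. The second spanned 289.4 kb over Foxp1 and Eif4e3 (chr6:99114979-99404406), with 70 regions and 177.8 kb marked. Foxp1 codes for a forkhead factor known for the quiescence of naive T cells. The third spanned 269.1 kb over Bach2 (chr4:32299567-32568641), a repressor that restrains effector genes, with 63 regions and 156.0 kb marked.

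The other 7 of the first 10 were, in order of marked length, at Gpr183 and Gpr18 with Ubac2 (153.4 kb), Ankrd11 (132.7 kb), Klf13 (125.1 kb), Mbnl1 (124.8 kb), Akap13 (118.9 kb), the Ms4a4b to Ms4a6c genes (115.6 kb) and Ikzf1 (114.1 kb). Gpr183 codes for an oxysterol receptor that positions lymphocytes, and Ikzf1 for the lymphoid factor Ikaros. The share of the span that was marked went from 46.8% at Akap13 to 83.1% at Mbnl1. Ankrd11 and Ikzf1, at 81.1% and 78.2%, were near the upper end.

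Ranked gene by gene, the largest marked shares among the 9711 loci of at least 40 kb were those of Rhoh (89.9%), Ikzf1 (89.7%), Il21r (84.3%), Grb2 (81.0%) and Irf8 (80.6%), followed by Foxo1 (77.6%), Ubac2 (75.01%), Ankrd11 (72.5%), Pik3cd (72.4%) and Jak1 (71.9%). RhoH is a haematopoietic GTPase, IL-21R a cytokine receptor, Grb2 an adaptor, PI3K delta a lipid kinase of lymphocytes and Jak1 the kinase of many cytokine receptors. By marked length the list was led by Gm20388 (636.7 kb of a 4455 kb locus) and Fgfr2 (236.9 kb of a 3029 kb locus), 2 gene models that run across many other genes in this annotation. They were followed by Bach2 (163.8 kb), Eif4e3 (148.5 kb), Foxp1 (145.5 kb), Akap13 (135.7 kb), Arid1b (130.5 kb), Ankrd11 (129.5 kb), Mbnl1 (124.8 kb) and Ubac2 (121.8 kb).

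Gene density was compared in 2565 windows of 1 Mb. Marked regions were more numerous where protein-coding TSSs were. Windows were ranked by TSS number and cut into 5 classes of 513. In the class with the fewest TSSs (0 or 1) the mean was 4.12 regions per Mb and the median 0. Mean values in the next classes were 14.04, 29.2 and 41.0, and 61.8 in the class with the most (14 to 79 TSSs), 15.0 times the lowest class, and 6.31 times in windows of 5 Mb. Regions per gene went the other way, from 8.92 in the lowest class to 2.49 in the highest. In windows of 5 Mb they were 4.53 in the lowest class, 4.83 in the next and 2.53 in the highest.

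Over windows Spearman's rho of TSS number and region number was 0.694 (Pearson's r 0.5995), and between 0.460 and 0.814 on the single autosomes. Windows are not independent, and they share base composition. GC content followed the regions with a rho of 0.776 and the TSSs with 0.683, and within 3 classes of 855 windows by GC content rho of TSSs and regions was 0.496, 0.2998 and 0.588 from low to high. The part of GC content in the relation was not tested further. The most regions in a window were 160, on chromosome 10 from 80 to 81 Mb, with 59 TSSs and 29.9% of the bases marked. The window on chromosome 9 from 44 to 45 Mb, which holds Cd3d, Cd3e, Cd3g, Cxcr5 and Cbl, had 154 regions and 41 TSSs.

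**Figure D3:**
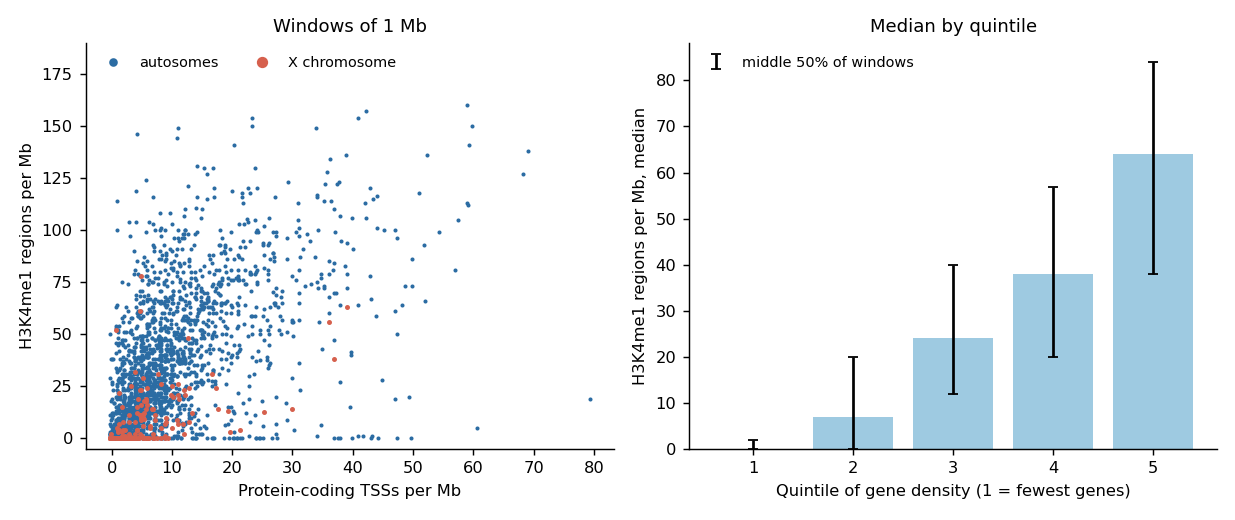
Left, H3K4me1 regions per Mb (vertical axis) against protein-coding TSSs per Mb (horizontal axis, points shifted sideways a little) in 2565 windows, with the X chromosome in red. Right, median regions per Mb in 5 classes of gene density with lines for the middle 50% of windows. The medians go from 0 in the lowest class to 64 in the highest.

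Gene density and marking also parted in places. The window on chromosome 17 from 5 to 6 Mb had 4 TSSs and 146 regions, in and around Arid1b, Synj2 and Snx9, and that on chromosome 15 from 80 to 81 Mb had 11 TSSs and 149 regions, with Grap2 and Mkl1. Of 276 windows without a TSS 217 also had 0 regions, and 17 had 10 or more. The highest of these, with 50 regions, was chromosome 11 from 24 to 25 Mb, which takes in part of the body of Bcl11a. The TSS of that gene lies just outside the window. Among chromosomes the autosomes had 22.1 to 49.4 regions per Mb and chromosome X 8.69, with 45.1 to 69.0% and 32.8% of promoters marked. The number of X chromosomes per cell depends on sex, which is not given.

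Long stretches without a region were also listed, outside assembly gaps. Of 402 stretches over 1 Mb between neighbouring regions 371 were kept under this rule, with 819 Mb in all. The longest, 12.3 Mb on chromosome 15 (12855672 to 25155893), held 7 protein-coding genes, among them the cadherin genes Cdh6, Cdh9, Cdh10, Cdh12 and Cdh18. The other 9 of the 10 longest measured 7016711 to 8597228 bp and held 3 to 20 protein-coding genes each. Of 1205 stretches over 300 kb 1155 were kept. These held 3967 of the 22350 protein-coding genes, among them 951 of 1113 olfactory and 202 of 321 vomeronasal receptor genes. Genes in the stretches left out, or only partly inside a kept stretch, are not in these counts.

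The label was then checked on lists of genes, each gene described by whether a region reached to within 2.5 kb of its TSS and by the share of its locus that was marked. Over all 22350 protein-coding genes, 58.2% had a marked promoter, 18.2% had at least 20% of the locus marked, 29.9% had no region in the locus, and the median marked share was 5.89%. Lists are read against these values. The rule for promoters is a wide one. With at least 50% of the window covered 21.9% of all genes passed, and the counts given below became 9 of 18 for T-cell receptor and CD8 signalling, 7 of 20 for T-lineage factors, 8 of 12 for homing and cytokine receptors, 7 of 17 for effector genes, 6 of 11 for activation-induced genes and 5 of 12 for B-cell genes. For NK-cell receptors, liver and muscle genes they became 0 of 12, for erythroid genes 1 of 12, for neuronal genes 1 of 11, for housekeeping genes 7 of 12, for ribosomal protein genes 40 of 82, for Hox genes 4 of 39 and for keratins 0 of 46, and for olfactory receptors 3 of 1113. Locus sizes differ, neighbouring genes share regions, and the lists were chosen with results of these data known, so their counts are a description. In pooled chromatin a mark carried by a part of the cells and a weaker mark in all of them cannot be told apart.

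Genes of antigen recognition were marked throughout. Of 18 genes of T-cell receptor and CD8 signalling, 17 had a marked promoter and 18 had at least 20% of the locus marked, with a median of 41.0% (22.3 to 95.1%). None of the 18 was CpG-rich. Cd2, an adhesion receptor, had 95.1% of its locus marked, the highest value of all 22350 genes, with a region of 22512 bp. The receptor chains Cd3e, Cd3d and Cd3g, which lie side by side, had 31.7%, 39.8% and 41.4%, and Cd8a and Cd8b1, the chains of the co-receptor, had 29.2% and 60.3%. The kinases Lck and Zap70 had 53.7% and 22.3%, the adaptor Lat 52.0%, and Cd28, the costimulatory receptor, had 31.3% with no region within 2.5 kb of its annotated TSS.

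Of 20 transcription factors of the T lineage, 19 had a marked promoter and 17 had at least 20% of the locus marked, with a median of 42.3%. The highest were Ikzf1 (89.7%), Foxo1 (77.6%), a forkhead factor of naive cells, and Ets1 (64.7%). Tcf7 had 39.2%, Lef1, its relative, 53.6% and Bach2 44.6%. Runx3 and Runx1 had 42.5% and 31.0%, and Zbtb7b, which directs the CD4 lineage, 44.3%. The lowest were Tox (9.28%), Myb (12.7%) and Tcf12 (17.6%), and Bcl11b, at 55.2%, had no region within 2.5 kb of the TSS and its nearest midpoint 4.83 kb away.

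Receptors of naive T cells were marked as widely. All 12 homing and cytokine receptor genes had a marked promoter and 11 had at least 20% of the locus marked, with a median of 50.8%. Ccr7, which guides naive cells into lymph nodes, had 72.9%, and S1pr1, which guides them out, 56.8%. Il7r had 27.5% and Il2rb 15.3%, the lowest of the list. Of the 12 genes 10 had regions on both sides of the TSS and none on it, and 5 were CpG-rich.

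Genes that are used after activation had lower median marked shares than these 3 lists. The median of all protein-coding genes was 5.89%, with 58.2% of promoters marked and 18.2% of loci at 20% or more. Of 11 activation-induced and inhibitory genes 9 had a marked promoter and 6 had at least 20% of the locus marked, with a median of 20.6%. Lag3 had 51.7%, Nr4a1 44.9% and Cd69 39.2%, while Ctla4 had 14.8% and Havcr2 11.9%. Both were without a region within 2.5 kb of the annotated TSS, the outermost start of the gene model. The model of Ctla4 runs over chr1:60943844-60972676, and starts inside it were not looked at. Of 17 effector molecules and factors 11 had a marked promoter and 6 had at least 20% marked, with a median of 14.2%.

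The effector genes divided. Ifng and Il2, the cytokine genes, had no region in the locus, and the nearest midpoints were 18.0 and 26.8 kb from their TSSs. Gzma and Gzmb, the granzymes, had 1 region each that marked 4.57% and 5.61%, and Klrg1 had 1 that marked 5.49%. Prf1, the perforin gene, had 24.7%, Eomes and Tbx21, the T-box factors of effector cells, had 21.2% and 10.6%, and Fasl had 43.7%. Tnf had 84.4%, in a locus that also takes in the lymphotoxin genes beside it.

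**Figure D4:**
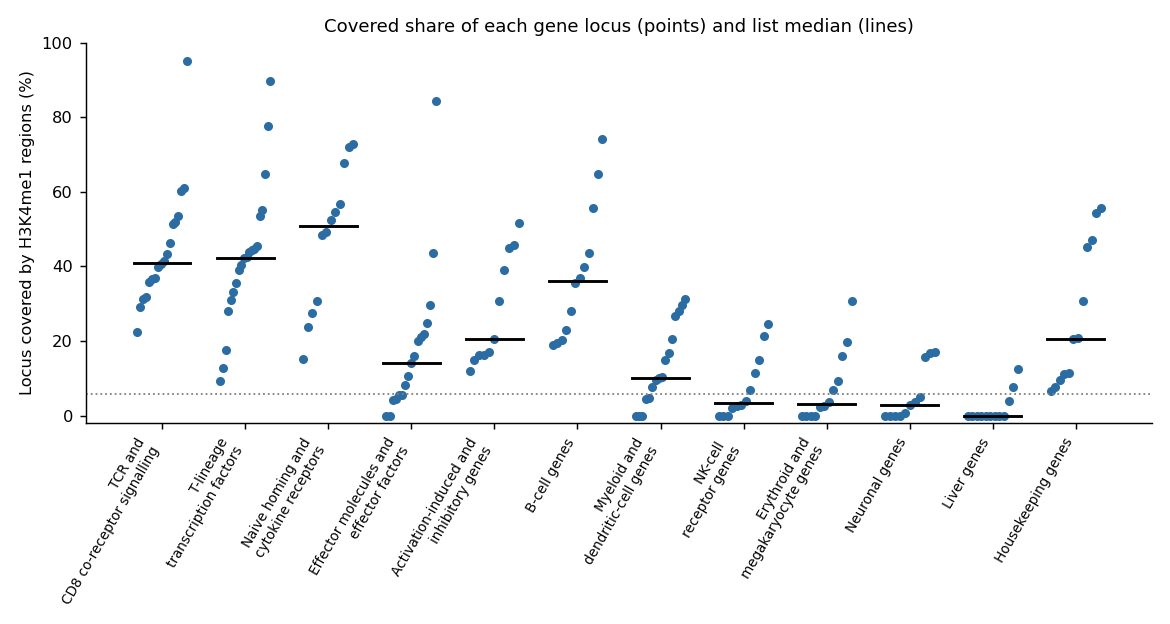
Percent of each locus (gene body with 10 kb on either side) inside H3K4me1-marked regions (vertical axis) for the genes of 12 lists (horizontal axis), with points for genes, lines for list medians and a dotted line for the median of all protein-coding genes (5.89%). Medians of the 3 lists of resting T-cell genes are 41.0, 42.3 and 50.8%, that of B-cell genes 36.1% and that of liver genes 0%.

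Genes of B lymphocytes, the other main lymphocyte of the spleen, were marked nearly as widely, although beads for CD8 do not select these cells. All 12 had a marked promoter and 10 had at least 20% of the locus marked, with a median of 36.1% (18.8 to 74.3%). Among the defining markers reported here, Cd79b had 74.3%, Cd79a 64.7%, Ms4a1 28.1% and Pax5 20.3%, with a region of 15390 bp in its locus, and none was at 0. Every T-cell gene count above therefore stands beside this one. Whether the marks at B-cell genes came from other cells in the selected fraction or from CD8-TC was not tested.

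Markers of other blood cells were counted next. Of 16 myeloid and dendritic-cell genes 11 had a marked promoter and 5 had at least 20% marked, with a median of 10.2% (0 to 31.4%). All 3 values were above those of all protein-coding genes, of which 58.2% had a marked promoter and 18.2% at least 20% marked, with a median of 5.89%. With at least 50% of the promoter window covered the direction turned, since 1 of the 16 and 21.9% of all genes passed. Lyz2, S100a8 and S100a9, abundant in macrophages and neutrophils, had no region, with the nearest midpoints 41.5 to 74.2 kb from the TSS. Elane, the elastase of neutrophils, had 29.6% with 4 regions, and 9.14% of its promoter window was marked. It lies in a window of 1 Mb with 150 regions and 60 TSSs, and the share of its neighbours in the value was not tested. Csf3r had 10.1% with a region on the TSS, and Emr1, a marker of macrophages, 4.53% with a region on the TSS. Itgam had 31.4%, Itgax 26.7%, Xcr1 28.0% and Clec9a 7.75%, the last 3 being markers of dendritic cells, some of which carry CD8. The part of such cells was not tested.

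Of 12 NK-cell receptor genes 5 had a marked promoter and 2 had at least 20% marked, Klrd1 (24.7%) and Klrb1c (21.3%), with a median of 3.34%, and Ncr1, a defining marker, had no region. Of 12 erythroid and megakaryocyte genes 6 had a marked promoter and 1, Klf1 (30.8%), had at least 20% marked, with a median of 3.15%, and the defining markers Gata1 and Hbb-b1 were at 0. Klf1 lies in a dense stretch of genes, and the share of its neighbours in the value was not tested.

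Genes of other tissues were compared next. Of 11 neuronal genes 5 had a marked promoter and 0 had at least 20% marked, with a median of 2.88%, and Syt1 and Snap25, genes of synaptic vesicle release, had no region. Of 12 liver genes 2 had a marked promoter, and 9, among them Alb, Ttr and Cyp7a1, had no region at all. Of 12 muscle genes 2 had a marked promoter, 6 had no region and 2 (16.7%) had at least 20% marked, near the 18.2% of all genes. These were Mef2c (23.9%), which B cells also express, and Myod1 (22.1%), a muscle factor, whose promoter was marked. The liver list, like the list of T-cell receptor signalling, had no CpG-rich promoter, and the 2 lists differed by 2 of 12 against 17 of 18 marked promoters.

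Genes that every cell uses were mostly marked at the promoter. All 12 housekeeping genes had a marked promoter and 7 had at least 20% marked, with a median of 20.6%. Of 82 cytosolic ribosomal protein genes 79 (96.3%) had a marked promoter, 55 of them with regions on both sides and none on the TSS, and 42 had at least 20% marked. The 3 without were Rpl10l, Rpl39l and Rpl3l, each a copy with restricted expression. Of 39 Hox genes, which pattern the embryonic axis, 23 had a marked promoter and 6 at least 20% marked, close to all genes (58.2% and 18.2%), with Hoxa7 (32.7%) the highest. With at least 50% of the promoter window covered 4 of the 39 passed, fewer than the 21.9% of all genes.

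The large receptor families of the nose were nearly empty. Of 1113 olfactory receptor genes 14 (1.26%) had a marked promoter and 1063 (95.5%) had no region in the locus. Of 321 vomeronasal receptor genes 0 had a marked promoter and 318 (99.1%) had no region. Of 46 keratin genes 4 had a marked promoter, and 39 had no region. Members of these families resemble each other in sequence, uniquely aligned reads can be fewer there, and this was not tested.

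**Figure D5:**
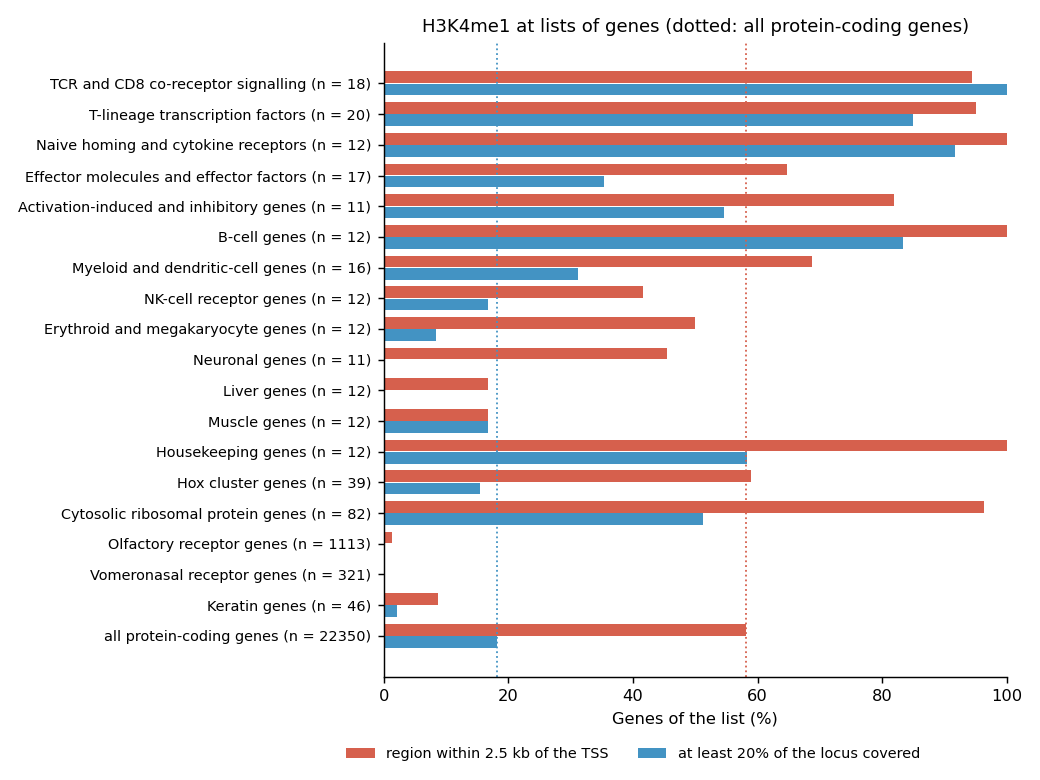
Percent of the genes of 18 lists and of all protein-coding genes (horizontal axis) with a region within 2.5 kb of the TSS (red bars) and with at least 20% of the locus marked (blue bars), with dotted lines for all protein-coding genes (58.2% and 18.2%). The lists of resting T-cell, B-cell, housekeeping and ribosomal protein genes have nearly all promoters marked, and liver, muscle and nasal receptor lists few.

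Last, the sequence of the regions was compared with windows 5 kb up- and downstream, of which 21.9% had their midpoint inside another region. The words searched, on both strands, were 4 of the RUNX type (TGTGGT with its variants TGTGGC, the rarer word TGCGGT and its partner word TGCGGC), the ETS words AGGAAG and CGGAAG, the AP-1 word TGAGTCA, the TCF/LEF word CTTTGA, the GATA word AGATAA, the E-box CACCTG, the SP/KLF word GGGCGG and the CTCF core AGGGGGCGC. The central 200 bp had a GC content of 46.8%, against 45.0% in the flanks. AGGAAG was the word with the largest difference in percentage points among the 12, found in 29.3% of centres (interval 29.0 to 29.7%) against 23.1% of flanks, or 1.27-fold. Flanks held it at a rate not far below, so its presence in a single window says little.

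The RUNX words were found more often in centres, at 17.0% against 15.5% for TGTGGT, 14.5% against 12.3% for TGTGGC, 2.62% against 1.66% for TGCGGT and 2.38% against 1.76% for TGCGGC. AP-1 was found in 3.996% against 3.51%, the E-box in 15.4% against 14.3% and CTTTGA in 14.8% against 14.0%. AGATAA was found slightly less often, in 10.5% of centres and 10.8% of flanks. GGGCGG was found in 4.66% against 3.53%, and the CTCF core in 0.151% (0.126 to 0.181%) against 0.0763%. A word with more G and C is more frequent in richer sequence, so GC content moves with these ratios, and its part was not tested.

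The counts differed by distance. Beyond 50 kb from a TSS AGGAAG was in 32.8% of centres (31.8 to 33.9%) against 24.0% of flanks and TGTGGT in 19.03% (18.2 to 19.9%) against 14.3%. Within 1 kb AGGAAG was in 23.6% (23.0 to 24.3%) against 22.6%, and TGTGGT in 13.6% (13.1 to 14.1%) against 15.9%, so that the direction turned for the latter. GGGCGG, which binds SP and KLF factors, went from 8.56% (8.15 to 8.98%) within 1 kb to 2.85% (2.504 to 3.24%) beyond 50 kb. Remote centres thus had more of the AGGAAG and TGTGGT words, and proximal ones more of the CpG-containing ones.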

How the data were processed

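ChIP-seq libraries of resting CD8-TC were analysed as deposited, 2 for H3K4me1 and 2 for NIS. Per the labels and the study's methods, the authors aligned reads to mm9 with ELAND (the submitters' notes name CASAVA 1.6 and 1.7), kept uniquely aligned reads, joined both repeats and called peaks with MACS against joined NIS reads, scaling the larger data set down. The deposited values are positions in base pairs, without score, fold or p-value. Starts were moved by 1 bp.

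Distances, gene parts, coverage, widths, gaps, windows with at least 50% known bases and words were computed with Python 3.11.15, numpy 2.4.6, scipy 1.17.1 and pandas 2.3.3 on the NCBIM37 sequence and the GENCODE annotation of that build (37252 genes, 95414 transcripts, of which 22350 genes are protein-coding). Intervals of medians come from order statistics. The code was tested on simulated regions. The Runx3 list gave its number of regions alone.

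Named were members of 18 gene lists, the 10 widest regions, the 10 domains with most marked length, the 10 loci leading by marked length and by marked share, and the 10 longest unmarked stretches. Lists and members were chosen with earlier results of these data known. Map2 of the neuronal list was not found under that symbol and is not analysed here. Alternatives were another distance, transcript set, region set, gap, window, promoter criterion and flank. Single values of some list members are not reported here.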

Additional observations from a re-analysis of the deposited data

How the results depend on the processing

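Of 69 alternative values for 19 results, 13 stayed within the counting interval and 56 moved. The interval covers counting error alone, so small shifts count as moves. The number of domains, the correlation, the ratios and the difference in GC content have no such interval, so each of their alternative values counts as moved. No paired analysis was possible because the list was called on joined repeats, which also prevents leaving out a repeat. Without scores or reads, neither depth nor stricter calling could be examined.

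The TSS-proximal share, under 1 kb (22.7%), was 31.8% when measured at the region's nearer edge, 18.8% with protein-coding transcripts and 20.8% for regions at or above the median width. The share beyond 50 kb (10.3%) was 17.3% with protein-coding transcripts, 9.70% for wider regions and 11.8% with neighbours within 1000 bp merged. The intronic share (46.4%) was 51.3% of marked bases, 47.1% with protein-coding transcripts, 48.8% for wider and 43.6% for merged regions. The intergenic share (27.7%) was 26.6%, 31.1%, 26.9% and 30.6% in that order.

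Coverage at the TSS (17.7%) was 10.1% for wider regions, 39.0% for merged ones and 18.9% over TSSs of all protein-coding transcripts, so merging fills most of the low point, whose intervals are short. At 900 bp downstream (40.7%) it was 32.0%, 42.4% and 42.2% in that order. The median width (979 bp) was 1536 bp after merging. The number of domains (20650) was 48155, 31238 and 12997 with gaps up to 1, 5 and 25 kb. Spearman's correlation of genes and regions (0.694) was 0.660 and 0.732 in windows of 0.5 and 5 Mb, 0.677 for marked bases and 0.680 for wider regions, and the ratio of the outer classes (15.0) was 16.2, 6.31, 15.6 and 16.3. Marked promoters (58.2%) were 55.5% within 1 kb, 61.2% within 5 kb, 21.9% with 50% of the window covered and 46.1% with wider regions. The ratio for AGGAAG (1.27) was 1.30 with flanks at 20 kb and 1.08 over whole regions, that for TGTGGT (1.10) was 1.09 and 1.01, and the difference in GC content (1.83 points) was 1.91 and 1.17.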

Other observations

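Short unmarked gaps of 200 to 1000 bp between neighbouring regions were counted after the list was examined. There were 16407, and 6471 of them (39.4%) had their centre less than 1 kb from a TSS. Their central 200 bp had a GC content of 52.4% and 42.5 CpGs per kb, against 45.1% and 11.7 in windows 5 kb away, and the SP/KLF word GGGCGG was in 22.8% (interval 22.1 to 23.4%) against 3.57%. The ETS word CGGAAG was in 11.4% (10.9 to 11.9%) against 3.08%.

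More than 5 kb from a TSS the gaps had a GC content of 44.2% against 44.3% and 11.8 against 10.6 CpGs per kb, and GGGCGG was in 3.96% (3.52 to 4.45%) against 2.83%. Over 6721 such gaps AGGAAG was in 21.7% (20.7 to 22.7%), against 22.8% of the windows 5 kb away and 29.5% of the centres of the 12091 regions beside the gaps. For TGTGGC the shares were 10.4%, 12.1% and 15.2% in the same order. For TGTGGT, the other RUNX word, they were 16.5% (15.6 to 17.4%), 15.6% and 17.8%. All 3 words were thus more frequent in the region centres, whose GC content of 45.9% was also higher, than in the gaps between them, and the part of base composition in this was not tested. CGGAAG was in 3.76% (3.34 to 4.25%) of the gaps against 2.52% of the windows.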
